A study of Mus musculus with 12 samples.

Results

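The C/EBP family and the factors that share its work in choosing myeloid cell fate were compared between knockout and wild type marrow. The set held 8 genes, of which 5 encode C/EBP proteins (Cebpa, Cebpb, Cebpd, Cebpe and Cebpg) and 3 encode other transcription factors of myeloid cells (Spi1, Gfi1 and Klf4). They were chosen by name, not by their values, though with earlier results of these data known. The choice was made from 19937 genes that have a row of their own in the deposited table. Each of the 8 had 1 such row, and all 8 passed the filter on low values, as did 17807 genes in all.

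The study measured RNA levels with GeneChip Mouse Gene 1.0 ST arrays in marrow crushed from the hind legs of mice, after cells that bear Ter119, GR1, CD11b, B220, CD2 or NK1.1 had been pulled out with magnets. Of the 12 mice, 6 were E4bp4-/- (knockout) and 6 were E4bp4+/+ (wild type), with 1 array per mouse. E4bp4, also called Nfil3, is a basic leucine zipper transcription factor. Strain, age, the deleted part of the gene and how the allele was made are not given in the sources used here.

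C/EBP proteins carry a basic region that touches DNA and a leucine zipper through which they pair with each other and with related factors. In marrow, C/EBP alpha is needed for the step to granulocyte and monocyte progenitors, C/EBP epsilon for the later steps of granulocyte maturation, and C/EBP beta for the emergency production of granulocytes. PU.1, the product of Spi1, works beside them at many myeloid genes, Gfi1 is a zinc finger repressor that favours granulocytes, and Klf4 is a zinc finger factor of monocytes.

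The promoters of 3 members are shown because these genes varied to different extents across the mice, as described below. Of the 3, Cebpa and Cebpb moved together. A further reason is that E4bp4 and the C/EBP proteins bind related palindromes. Each window runs from 250 bases before to 50 bases after the annotated start (RefSeq, build GRCm38.p6), 5′ to 3′ on the gene's own strand. Capitals mark TATAAA, the TATA box, in Cebpa and Cebpb. They also mark a GCAAT, the half-site of C/EBP proteins, in Cebpb. In Cebpg they mark CCAAT boxes, which are read here on the opposite strand. Cebpa lies at chr7:35119043-35119342 on the plus strand, Cebpb at chr2:167688665-167688964 on the plus strand and Cebpg at chr7:35056517-35056816 on the minus strand.
Cebpa: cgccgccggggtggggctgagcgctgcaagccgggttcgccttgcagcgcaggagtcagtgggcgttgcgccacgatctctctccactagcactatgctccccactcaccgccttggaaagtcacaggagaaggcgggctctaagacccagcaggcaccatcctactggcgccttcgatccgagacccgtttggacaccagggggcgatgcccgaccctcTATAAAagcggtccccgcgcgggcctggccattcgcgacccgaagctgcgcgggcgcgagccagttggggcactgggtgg
Cebpb: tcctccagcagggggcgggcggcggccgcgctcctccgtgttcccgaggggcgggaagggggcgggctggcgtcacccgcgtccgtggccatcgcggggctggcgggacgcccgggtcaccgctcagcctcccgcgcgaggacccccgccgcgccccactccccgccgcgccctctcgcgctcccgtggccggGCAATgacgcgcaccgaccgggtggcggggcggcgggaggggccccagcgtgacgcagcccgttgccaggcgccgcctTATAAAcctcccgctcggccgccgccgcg
Cebpg: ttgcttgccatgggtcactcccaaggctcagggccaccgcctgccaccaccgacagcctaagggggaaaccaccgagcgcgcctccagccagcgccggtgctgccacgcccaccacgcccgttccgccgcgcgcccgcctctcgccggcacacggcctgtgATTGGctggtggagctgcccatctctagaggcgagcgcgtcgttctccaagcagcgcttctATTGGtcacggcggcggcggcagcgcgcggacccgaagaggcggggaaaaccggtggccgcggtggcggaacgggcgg

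The table of promoters matched 5 of the 8 members, with 6 windows because Gfi1 had 2. In these windows, searched on both strands, the E4bp4 palindrome TTACGTAA, its variant TTATGTAA and the C/EBP palindrome TTGCGCAA had no match. Among all 32851 windows of 300 bases, 0.119% held TTACGTAA, 0.938% held TTATGTAA and 0.183% held TTGCGCAA. The half-site GCAAT stood once in Cebpb, 57 bases before the start, and in 26.4% of all windows. TATAAA, found in 13.6% of all windows, began 30 bases before the start of Cebpa and 21 bases after the annotated start of Cebpb. Cebpg had no TATAAA but held 2 copies of CCAAT, which stood in 37.4% of all windows. TATAAA and CCAAT were added to the search after the sequences had been read. None of the motifs searched overlapped another in the windows printed.

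Values are log2 levels, so a difference of 1 is a doubling. Array medians ran from 6.54 to 6.62 in knockout and from 6.50 to 6.56 in wild type mice. The 20th percentiles ran from 4.93 to 4.99. Nfil3, the targeted gene, had a difference, knockout minus wild type, of -0.68 ± 0.13 log2 (SE; limma adjusted p = 0.140). The targeted gene itself thus did not pass the adjusted p threshold applied to the members below. No knockout array reached a wild type one for Nfil3, but knockout replicate 2, at 6.92, came close to wild type replicate 5, at 6.94. The progenitor receptor gene Kit lay between 10.93 and 11.38 on the 12 arrays. Of the antigens used for depletion, Cd2 lay between 5.01 and 5.40. Knockout replicate 1 stood apart: it had Xist, which female cells express, at 6.08 against 12.10 to 12.65 elsewhere, and the Y-linked genes Eif2s3y at 7.37 and Uty at 7.70 against at most 4.13 and 4.66, the pattern of a male mouse among females. The labels used here give no sex. That array also had Itgam (CD11b) at 8.93 and Ly6g (GR1) at 6.55, against at most 8.02 and 5.31 on the other arrays. It lay farthest along the first principal component of the 12 arrays, which took 26.8% of the variance, with a score of 44.4, and wild type replicate 1 came next at 21.1. Each member's difference is therefore also given without knockout replicate 1; the parts of sex and of this array's cell make-up were not tested.

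No member passed the test for a genotype difference. With limma across 29541 transcript clusters, adjusted p-values of the 8 members lay between 0.604 and 0.964, and 0 of 8 had even an unadjusted p under 0.05. The background was 0% of transcript clusters at an adjusted p under 0.05 and 14.9% at an unadjusted p under 0.05. The smallest adjusted p over all clusters was 0.109. The genotypes overlapped for every member, while 1.27% of all clusters had genotypes that did not overlap. Over all 12 arrays 7 members had positive differences and 1, Cebpg, a negative one, beside 55.9% of clusters above 0, but without knockout replicate 1 the split was 1 positive and 7 negative.

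Cebpa (transcript cluster 10552140), the factor of early granulocyte and monocyte progenitors, ran in knockout mice from 8.03 through a median of 8.54 to 9.45, and in wild type mice from 8.15 through 8.44 to 8.94. Knockout replicate 1 was the highest array and knockout replicate 6 the lowest, so the wild type lay inside the range of the knockout. The difference was 0.15 ± 0.21 log2 (SE; 95% interval -0.32 to 0.61), with an exact permutation p of 0.563, two-sided. Without knockout replicate 1 it was -0.020 ± 0.17.

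Spi1 (transcript cluster 10473809), which encodes PU.1, a factor shared by the monocyte, granulocyte and B cell lines, ran from 9.83 through 10.23 to 11.26 in knockout mice and from 9.75 through 10.14 to 10.75 in wild type mice. Both arrays numbered 1 were the highest of their genotype, and the other 10 lay between 9.75 and 10.39. The difference was 0.17 ± 0.23 log2 (SE; 95% interval -0.32 to 0.67), with an exact permutation p of 0.535, two-sided. It was -0.014 ± 0.17 without knockout replicate 1.

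Cebpe (transcript cluster 10419850), which drives the secondary granule programme of neutrophils, had the widest range of the 8 members, 2.15 log2 or 4.45-fold between the lowest and highest mouse. Knockout arrays ran from 7.64 through a median of 8.70 to 9.80 and wild type arrays from 8.13 through 8.65 to 9.16. Knockout mice gave both the highest array (replicate 1) and the lowest (replicate 4), and the means of 8.70 ± 0.74 (SD, n = 6) and 8.66 ± 0.44 (SD, n = 6) were close. The difference was 0.043 ± 0.32 log2 (SE; 95% interval -0.64 to 0.73; exact permutation p = 0.911, two-sided). It was -0.18 ± 0.27 without knockout replicate 1. Wild type replicate 6, at 9.16 the highest wild type array for Cebpe and just above replicate 1 at 9.14, also had the highest wild type mean of 5 eosinophil markers, 9.64, against 8.24 to 9.11 on the other wild type arrays. That array was singled out after its values were seen, and the part of eosinophil precursors was not tested.

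Gfi1 (transcript cluster 10532124), a repressor that holds back monocyte genes in granulocyte precursors, ran from 7.35 through 8.06 to 9.06 in knockout mice and from 7.60 through 7.96 to 8.11 in wild type mice. Replicates 1, 2 and 3 of the knockout lay above every wild type array and replicate 4 below every one. The difference of 0.21 ± 0.23 log2 (SE; 95% interval -0.30 to 0.72) was the largest of the set in size over the 12 arrays and had an exact permutation p of 0.463, two-sided. Without knockout replicate 1 it was 0.019 ± 0.17, the one positive value left, and Cebpe, at -0.18, was then the largest in size.

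Klf4 (transcript cluster 10513008), a factor of monocytes, ran from 8.49 through 8.72 to 9.80 in knockout mice and from 8.49 through 8.70 to 9.27 in wild type mice. Both arrays numbered 1 stood apart, and the other 10 lay between 8.49 and 8.97. The difference was 0.12 ± 0.21 log2 (SE; 95% interval -0.33 to 0.57), with an exact permutation p of 0.671, two-sided. It was -0.069 ± 0.13 without knockout replicate 1.

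Cebpb (transcript cluster 10478890) and Cebpd (transcript cluster 10433885), both known as factors of inflammatory and stress responses, varied less. Cebpb ran from 7.30 through 7.46 to 7.84 in knockout mice and from 7.35 through 7.40 to 7.72 in wild type mice. Its difference was 0.051 ± 0.093 log2 (SE; 95% interval -0.15 to 0.25), with an exact permutation p of 0.617, two-sided. Cebpd ran from 6.70 through 6.89 to 7.33 in knockout mice and from 6.77 through 6.91 to 7.01 in wild type mice. Knockout replicates 1 and 2 lay above every wild type array for Cebpd, and replicate 4 below every one. Its difference was 0.050 ± 0.094 log2 (SE; 95% interval -0.15 to 0.25), with an exact permutation p of 0.669, two-sided. Without knockout replicate 1 the differences were -0.016 ± 0.077 for Cebpb and -0.026 ± 0.069 for Cebpd.

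Cebpg (transcript cluster 10562416) encodes C/EBP gamma, a short, widely expressed member of the family that pairs with other zipper proteins and lacks a strong activation domain. It was nearly flat: 8.34 to 8.42 with a median of 8.38 in knockout mice, and 8.35 to 8.48 with a median of 8.41 in wild type mice. The difference of -0.040 ± 0.035 log2 (SE; 95% interval -0.12 to 0.035) was the smallest of the set in size over the 12 arrays, with an exact permutation p of 0.128, two-sided, and it was -0.048 ± 0.036 without knockout replicate 1, larger in size than those of Cebpa, Cebpb, Cebpd, Spi1 and Gfi1 then. With array medians set equal it was -0.080. Its 95% interval was the narrowest of the 8, while that of Cebpe, the widest, leaves room for differences from -0.64 to 0.73 log2.

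**Figure D1:**
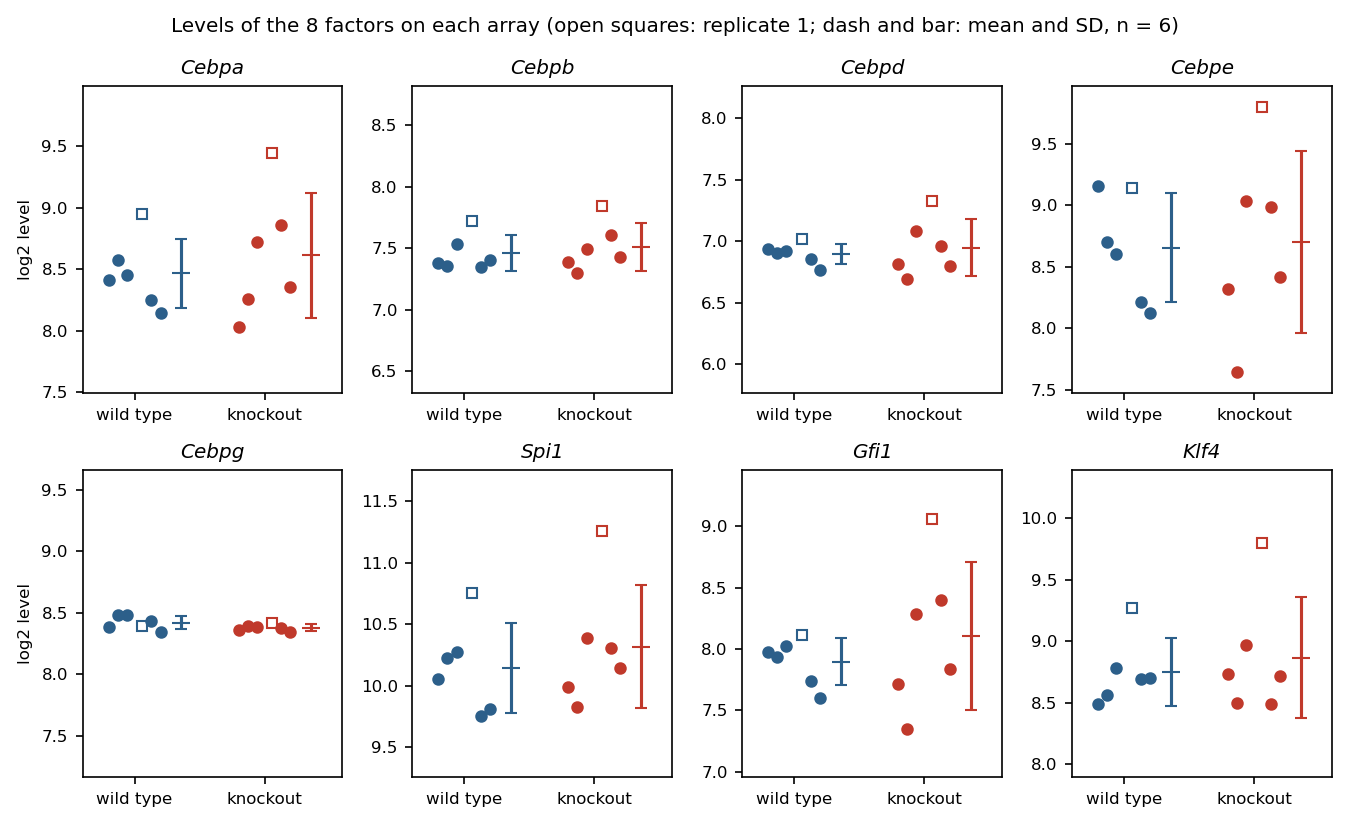
Log2 level (vertical axis, each panel spanning 2.5 log2) of each of the 8 factors on every array, wild type in blue and knockout in red; open squares are replicate 1 and the dash with its bar is the mean and SD of 6 arrays. The genotypes overlap in every panel, knockout replicate 1 is the highest array in 7 of 8, and Cebpg hardly varies.

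**Figure D2:**
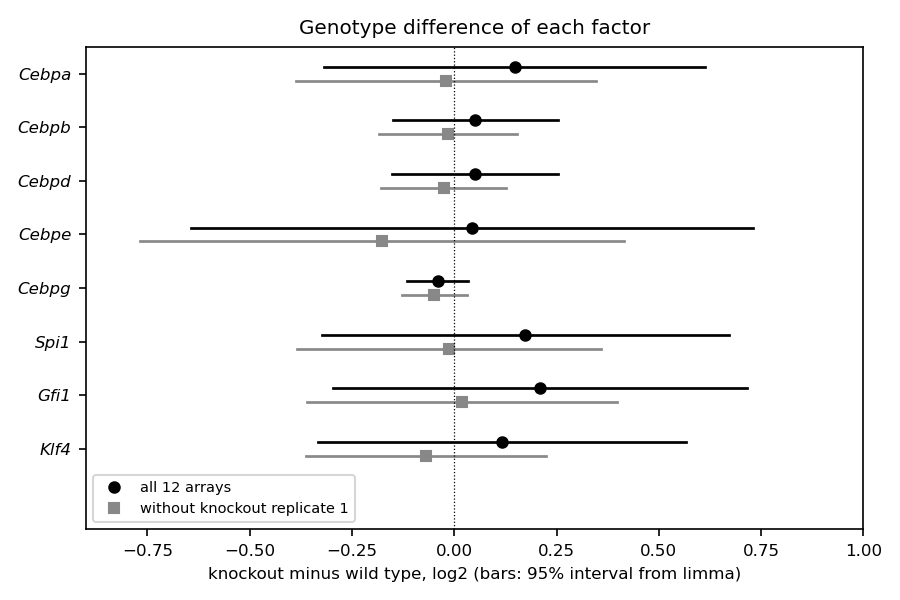
Knockout minus wild type difference in log2 for each factor, with its 95% interval from limma, over all 12 arrays (black circles) and without knockout replicate 1 (grey squares). All intervals include 0, and 6 of the 8 estimates pass from above 0 to below 0 when that array is left out.

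Most of each member's variance lay between mice of one genotype, and genotype took a larger share of it than for the median gene in Cebpg alone. Genotype took 0.146% of the variance of Cebpe over the 12 arrays, 3.71% of that of Cebpa, 4.48% of Spi1, 6.19% of Gfi1, from 2.46% to 2.56% of Cebpb, Cebpd and Klf4, and 21.4% of Cebpg, where the median over the 17807 genes was 10.1%. Over the 11 arrays without knockout replicate 1 the share was 28.7% for Cebpg and from 0.057% to 3.64% for the others. The SD within genotypes was 0.61 log2 for Cebpe, higher than that of 99.6% of the 17807 genes. It stood at 0.45 for Gfi1, 0.44 for Spi1, 0.41 for Cebpa and 0.40 for Klf4, above 98.3% to 98.7% of genes. For Cebpb and Cebpd it was 0.17, above 87.0% and 87.2% of genes. For Cebpg it was 0.042, above only 1.78% of genes. The SD without knockout replicate 1 was 0.50 for Cebpe, 0.31 for Cebpa and Spi1, 0.32 for Gfi1, 0.25 for Klf4, 0.13 for Cebpb, 0.12 for Cebpd and 0.042 for Cebpg. Those of Cebpe, Cebpa, Spi1, Gfi1 and Klf4 were still above 96.4% to 99.6% of genes.

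The 7 members besides Cebpg moved together over the mice, with a limit for Klf4 given below. Correlations were computed for 28 pairs of members and for each member with 2 granule gene lists, 44 relations in all, with permutation p-values adjusted over them by Benjamini and Hochberg's method. All 21 pairs that leave out Cebpg had a Pearson r between 0.66 and 0.96 over the 12 arrays and passed an adjusted p of 0.05, and 15 of the 21 passed with Spearman's rho. Of all 158535721 pairs among the 17807 genes, 3.29% had an r as high as the lowest of the 21, and 0.247% as high as their median of 0.86. These 7 members also followed the first principal component of the arrays, with r from 0.77 for Cebpe to 0.97 for Spi1, where Cebpg had 0.23. The 7 pairs with Cebpg had r between 0.07 and 0.23, and 0 of them passed by either measure. Their r was 0.16 to 0.37 with genotype means removed, 0.49 to 0.73 among the 6 knockout arrays and -0.16 to 0.40 among the 6 wild type arrays. Without knockout replicate 1 the 21 pairs ran from 0.29 to 0.91, with a median of 0.76 (0.854% of all gene pairs were as high as that median and 23.2% as high as the lowest), and the 7 pairs with Cebpg from -0.06 to 0.20.

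Cebpd and Gfi1 were the closest pair, with r = 0.96 and rho = 0.95 (permutation adjusted p = 0.000176 and 0.000352). Their r was 0.97 with genotype means removed, 0.91 without knockout replicate 1, 0.87 without the 2 arrays farthest from the median of Cebpd, and 0.96 among the wild type arrays alone. Cebpa and Spi1, the factors of the first myeloid step, had r = 0.94 and rho = 0.93 (permutation adjusted p = 0.00022 and 0.000352). Their r was 0.87 without knockout replicate 1, 0.81 without the 2 arrays farthest from the median of Cebpa and 0.97 among the wild type arrays. Cebpe and Gfi1 had r = 0.92 and rho = 0.88 (permutation adjusted p = 0.000189 and 0.00117), with r = 0.90 without knockout replicate 1 and 0.83 without the 2 arrays farthest from the median of Cebpe.

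The relations of Klf4 rested largely on the 2 arrays numbered 1. Its r with the 6 members other than Cebpg was 0.66 to 0.86 over the 12 arrays, 0.29 to 0.66 without knockout replicate 1 and -0.044 to 0.37 without both arrays numbered 1, a choice made after the data were seen. The other 15 pairs without Cebpg had r from 0.60 to 0.92 over the same 10 arrays. Spi1 and Cebpb were the closest to Klf4, with r = 0.86 and 0.83 and rho = 0.54 and 0.61 (permutation adjusted p of rho 0.11 and 0.0644), and with r = 0.27 and 0.23 over the 10 arrays. Klf4 and Cebpa had r = 0.75 but rho = 0.33 (permutation adjusted p = 0.0135 and 0.376). Leaving out 1 other array could raise r, to at most 0.96 for Cebpb and 0.87 for Cebpa. Of the 6 pairs of Klf4 with members other than Cebpg, 0 passed with Spearman's rho.

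**Figure D3:**
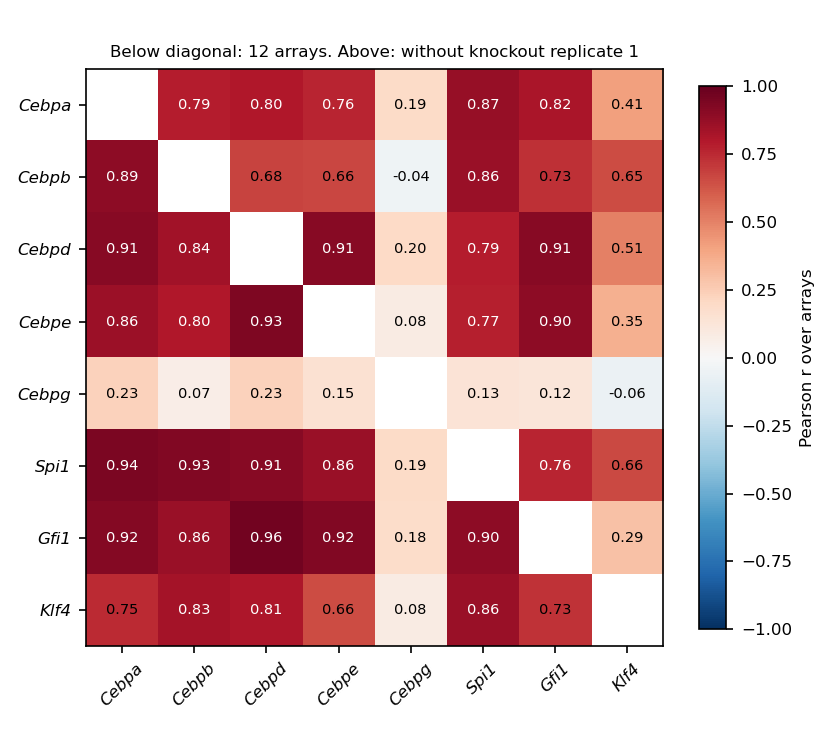
Pearson r over arrays for each pair of factors, as colour and number, from 12 arrays below the diagonal and from 11 arrays, without knockout replicate 1, above it. The row and column of Cebpg are pale throughout, and those of Klf4 fade above the diagonal.

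A list of neutrophil primary granule genes followed the same order of mice. Among them are the genes of myeloperoxidase and elastase, enzymes stored in the first granules to form. Not all genes of the list code for granule contents. The list had 10 genes (Mpo, Elane, Prtn3, Ctsg, Ms4a3, Prss57, Cst7, Ctsc, Srgn and Gstm1), and its mean level ran from 10.80 to 12.15 in knockout mice and from 10.96 to 11.80 in wild type mice. Cebpa had r = 0.97 and rho = 0.94 with that mean (permutation adjusted p = 0.000176 and 0.000352), and r = 0.94 without knockout replicate 1 and 0.91 without the 2 arrays farthest from its median. Cebpd, Spi1, Gfi1, Cebpe and Cebpb had r of 0.95, 0.94, 0.94, 0.92 and 0.92, and 0.91, 0.89, 0.89, 0.87 and 0.85 without knockout replicate 1. Klf4 had r = 0.77 but rho = 0.42 (permutation adjusted p = 0.00666 and 0.244) and r = 0.14 without the 2 arrays farthest from its median. Cebpg had r = 0.27 and rho = 0.32 (permutation adjusted p = 0.473 and 0.376). Among 17797 genes outside the list the median r was -0.028, and 0.354% had an r as high as that of Cebpa, 1.74% as high as that of Cebpb, 6.43% as high as that of Klf4 and 27.6% as high as that of Cebpg. These arrays measure mixed cells, so more cells of a type and more RNA per cell cannot be told apart.

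The list of later granule genes, some of which Cebpe is known to switch on, varied more, and in knockout replicate 1 above all. Not all of its genes code for granule contents either. The mean of the 15 genes was 8.66 there, and from 6.17 to 7.15 on the other 11 arrays. Its r with Cebpe was 0.79, with rho = 0.69 (permutation adjusted p = 0.00366 and 0.029), but 0.64 without knockout replicate 1 and 0.54 without the 2 arrays farthest from the median of Cebpe. With Cebpd r was 0.89, with rho = 0.78 (permutation adjusted p = 0.000902 and 0.00796), and 0.65 without the 2 arrays farthest from the median of Cebpd. The part of mature granulocytes left in the fraction, whose antigen genes Itgam and Ly6g were also highest in knockout replicate 1, was not tested.

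**Figure D4:**
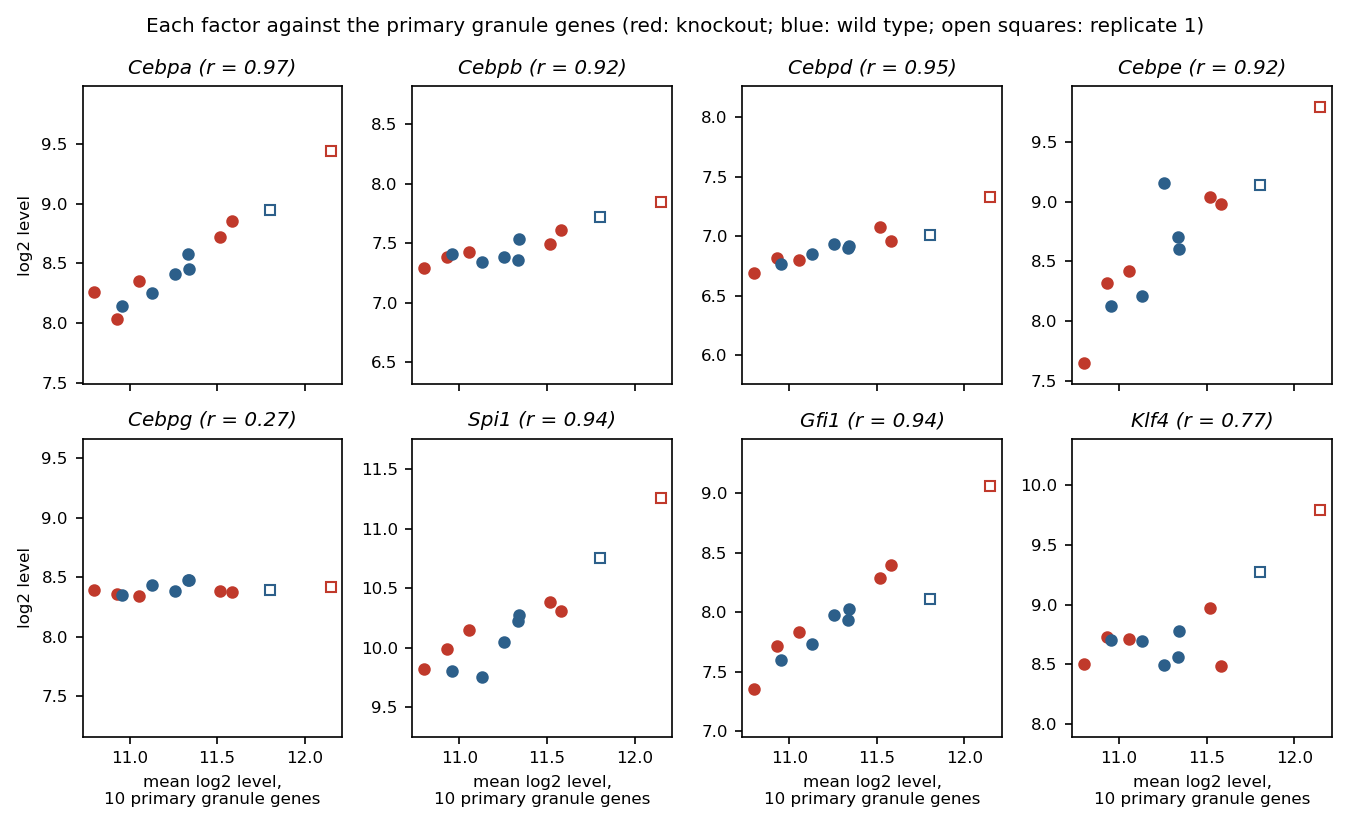
Log2 level of each factor (vertical axis, 2.5 log2 per panel) against the mean log2 level of 10 primary granule genes (horizontal axis) on 12 arrays, with knockout in red, wild type in blue and replicate 1 as open squares. Points of both genotypes rise with the granule mean for Cebpa, Cebpd, Gfi1 and Spi1, though not always with the same slope. The slope of Klf4 rests on the open squares, and Cebpg is level.

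For each member the 3 genes with the most similar pattern over the 12 arrays were named by Pearson's r, out of 17799 genes besides the members. For Cebpa they were Plac8, Spin1 and Clec5a, a lectin receptor of myeloid cells, at r from 0.98 to 0.99 (rho from 0.97 to 0.98). For Cebpe they were Nucb2, Arsb, a lysosomal sulfatase, and Csf2rb, the common beta chain of the receptors for GM-CSF, interleukin 3 and interleukin 5, at 0.98 each (rho 0.97 each). For Spi1 they were Myl12b, Man1c1 and Unc93b1, a carrier of Toll-like receptors, at 0.99 each. Mtus1 and Hvcn1, a proton channel, were shared by the lists of Cebpd and Gfi1, at r from 0.98 to 0.99, with Anxa1 besides for Cebpd and Abca13 for Gfi1. For Cebpb they were Gpr84, Card9 and Slc2a6 at 0.97 each.

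The closest genes of Cebpg, and by a small margin those of Klf4, had a lower r than those of the other members. For Klf4 they were the cytokine gene Il6, Pvr and Ctsa at r = 0.96, 0.96 and 0.96 (rho 0.79, 0.85 and 0.78). Without knockout replicate 1 their r was 0.88, 0.87 and 0.86, where the closest genes of Cebpb had 0.98, 0.94 and 0.95. For Cebpg the closest genes were Srp72, Ptpn2, a tyrosine phosphatase, and Ints12, at r = 0.87, 0.87 and 0.86 (rho 0.75, 0.74 and 0.82). The highest correlations of Cebpg were thus below those of every other member. These values describe the choice made and were given no p.

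Of the pathways around these factors, 0 genes passed an adjusted p of 0.05 in limma, as did 0% of all clusters. The list of partners and regulators of C/EBP proteins had 16 genes, all tested, with 8 higher and 8 lower in knockout mice where 58.8% of all genes were above 0. Its median difference was -0.00021 log2, or -0.053 without knockout replicate 1, and that of all 17807 genes 0.020. Cop1, a ubiquitin ligase through which Tribbles proteins destroy C/EBP alpha, was at 9.37 ± 0.10 (SD, n = 6) in knockout mice and 9.50 ± 0.14 in wild type mice. Ddit3, a C/EBP relative that pairs with the others and blocks their usual binding, was at 8.33 ± 0.19 and 8.49 ± 0.24, a difference of -0.16 ± 0.11 log2 (SE; limma adjusted p = 0.524). Atf5 and Atf4, zipper factors of the stress response, differed by 0.16 ± 0.084 and -0.056 ± 0.055 log2. With knockout replicate 1 left out, the differences were -0.10 for Cop1, -0.20 for Ddit3, 0.17 for Atf5 and -0.099 for Atf4.

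Other myeloid fate factors were more often higher than lower in knockout mice, 23 of 26 tested, beside 58.8% of all genes. Their median difference was 0.11 log2. At an unadjusted p under 0.05 there were 4 higher (Gata2, Irf4, Myb and Zeb2) and 0 lower, beside 9.47% and 5.72% of all genes. Gata2, a factor of stem cells and mast cells, was at 10.12 ± 0.078 (SD, n = 6) in knockout mice and 9.95 ± 0.091 in wild type mice, a difference of 0.17 ± 0.052 log2 (SE; limma adjusted p = 0.214). Irf4 differed by 0.28 ± 0.11, Myb, a factor that keeps progenitors dividing, by 0.11 ± 0.049, and Zeb2 by 0.11 ± 0.049, with limma adjusted p-values from 0.285 to 0.332. The differences without knockout replicate 1 were 0.15 for Gata2, 0.21 for Irf4, 0.090 for Myb and 0.069 for Zeb2. The list median without that array was 0.040, with 2 genes at an unadjusted p under 0.05. The stem and progenitor marker list, in which Myb also stands, moved the same way, with 7 of 7 genes higher. Its mean level ran from 9.25 to 9.58 in knockout mice and from 9.07 to 9.32 in wild type mice. The filter on low values had kept all 7, of which Mecom lay lowest, at 5.15 to 5.49. The part of stem and progenitor cells in these differences was not tested.

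Receptors for the cytokines of myeloid growth had positive differences for 9 of 9 genes, beside 58.8% of all genes. Their median was 0.16 log2. At an unadjusted p under 0.05 there were 0, beside 9.47% of all genes higher and 5.72% lower. Il3ra, the interleukin 3 receptor alpha chain, differed by 0.16 ± 0.079 (SE; limma adjusted p = 0.369), Il6ra by 0.25 ± 0.17, Csf2rb2 by 0.22 ± 0.18 and Il6st by 0.14 ± 0.11. Without knockout replicate 1 the median was 0.054 and 6 of 9 were positive, with Il3ra at 0.11, Il6ra at 0.11, Csf2rb2 at 0.096 and Il6st at 0.046.

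Over the 12 arrays 58.8% of all genes had positive differences, with a median of 0.020 log2. Among the genes that these factors act on, primary granule genes had 8 of 10 positive differences and a median of 0.017 log2. Without knockout replicate 1 they had 0 of 10 positive and a median of -0.13. Of them, Ctsc differed by 0.19 ± 0.26, Cst7 by 0.14 ± 0.23, Srgn by 0.016 ± 0.054 and Elane by -0.037 ± 0.17. Without that array they were at -0.059, -0.035, -0.012 and -0.14. Later granule genes had 15 of 15 positive differences and a median of 0.42 log2, which became 13 of 15 and 0.079 without that array. Cd177, a neutrophil surface protein, was at 7.04 ± 0.38 (SD, n = 6) in knockout mice and 6.76 ± 0.091 in wild type mice, a difference of 0.29 ± 0.15 log2 (SE; limma adjusted p = 0.377). The collagenase gene Mmp8 differed by 0.42 ± 0.22, Itgb2l by 0.15 ± 0.078 and Retnlg by 0.53 ± 0.39. With that array left out these were 0.14 ± 0.058 for Cd177, 0.19 ± 0.083 for Mmp8, 0.073 for Itgb2l and 0.21 for Retnlg. Cd177 and Mmp8 had an unadjusted p under 0.05 in limma only then (limma adjusted p = 0.34 and 0.351). At that unadjusted p there were then 3997 transcript clusters in all, of which 62.1% had positive differences. Monocyte and macrophage genes had 17 of 17 positive differences and a median of 0.21 log2, which became 9 of 17 and 0.0087. Of these, Fcgr1, an Fc receptor, differed by 0.078 ± 0.042, S100a4 by 0.16 ± 0.13, the cathepsin gene Ctss by 0.34 ± 0.28 and the mannose receptor gene Mrc1 by 0.28 ± 0.23. Without that array they were at 0.069, 0.058, 0.096 and 0.030. Knockout replicate 1 was the highest of the 12 arrays for 10 of 10 primary granule, 15 of 15 later granule and 17 of 17 monocyte and macrophage genes. It was also the highest for 19 of 26 other myeloid fate factors, 8 of 9 cytokine receptors and 6 of 7 stem and progenitor markers. The counts were 7 of 16 for partners and regulators, 1 of 7 for B lineage and 0 of 6 for erythroid markers. The share of all genes highest on that array was not counted.

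Markers of other cells that the fraction can hold also differed between mice. Knockout replicate 1 was the highest array for 6 of 6 basophil and mast cell markers, whose mean was 10.56 there and from 8.60 to 10.26 elsewhere. Their first marker, the basophil protease gene Mcpt8, ran from 10.16 to 12.21 in knockout mice and from 9.70 to 11.95 in wild type mice. The megakaryocyte mean, by contrast, was 9.94 in that array, the lowest of the knockout, where the others reached 10.56 to 10.83 and the wild type arrays 9.81 to 10.40. Positive differences were found for 6 of 6 megakaryocyte genes, beside 58.8% of all genes. The megakaryocyte median was 0.39 log2, with 3 genes at an unadjusted p under 0.05 in limma, or 0.49 and 6 without knockout replicate 1. Of 7 B lineage genes 3 were higher at an unadjusted p under 0.05 and 0 lower, with a median of 0.19. Their levels spread from the B cell receptor gene Cd79a, at 4.94 to 5.68, to Cd79b, at 8.88 to 9.93. Of 7 NK and innate lymphoid genes 3 were lower at that p and 0 higher. They were Gata3 by -0.64 ± 0.13 log2, Id2 by -0.77 ± 0.28 and the NK cell receptor gene Ncr1 by -0.14 ± 0.061. Ncr1 was low on all 12 arrays, between 4.98 and 5.41. In that list 2 genes, Eomes and Prf1, had positive differences. Of 7 dendritic cell genes 3 were also lower at that p and 0 higher, with the antigen-presenting genes H2-Aa at -1.34 ± 0.34 and H2-Ab1 at -0.55 ± 0.16. Siglech, Cd209a and Bst2 of the same list had positive differences, of 0.19, 0.26 and 0.13. Of all genes, 9.47% were higher and 5.72% lower at an unadjusted p under 0.05 in limma. Apart from the first marker of each list, the genes named for these cells were picked after their values were seen. In these lists 0 genes passed an adjusted p of 0.05 in limma. The part of these cells in the members' values was not tested.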

How the data were processed

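Levels were measured on 12 GeneChip Mouse Gene 1.0 ST arrays. The authors deposited log2 values per transcript cluster, made by RMA16 in GeneSpring GX 11 according to the series design text; the log2 scale was read from the range, 3.18 to 14.33. RMA brings the arrays' distributions close to each other, which can hide a change shared by most genes. The deposited medians still differed somewhat between the genotypes, as given above. The table has 34760 clusters, before the 20th percentile filter named in that text. Clusters that stayed below that percentile on all 12 arrays were dropped (29541 remained). Rows were named by platform annotation; 21640 name 1 gene, and the brightest such row stood for a gene.

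Differences, knockout minus wild type, were fitted with lmFit and eBayes of limma 3.58.1 (R 4.3.3) without covariates, with Benjamini-Hochberg adjustment over all kept clusters. Single members were also tested by exact permutation of the 12 arrays (924 splits), and correlations by 100000 permutations. On simulated data for this comparison, 29541 clusters with independent noise, the fit found 81% of the 100 given a change of 0.5 log2, 91% of the 100 given 1 log2, and 8 others in error. The changed clusters were drawn at random. Cebpe had an SD within genotypes of 0.61 log2, where the median gene had 0.099. The simulated noise also lacked the variation that real arrays share. These percentages therefore do not hold for members that vary as much as Cebpe. Named genes are the 8 members, Nfil3, the 4 of lowest p in each pathway list, the 3 most alike to each member, and the first marker of a cell type list; others were named after their values were seen. Members and lists were chosen with earlier results of these data known. Ly6c2, Ly6a, Gp1bb, Lck and Bglap had no row naming 1 gene, and were not analysed here; some other list genes are not reported here. Alternatives covered the filter, scaling, variance prior, array weights, the replicate number as a block and each array left out.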

Additional observations from a re-analysis of the deposited data

Results flagged for a closer look

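Values listed here are the highest or lowest of their genotype and lie so far from the next array that the gap, as a share of the genotype's range, passed Dixon's 95% critical value. Of 146 sets of 6 values this held for 19, and 14 of the 19 were in knockout replicate 1. Chance would give about 7 (1 in 20) if the sets were independent and unselected. They were not, since they include means of lists beside single genes of lists, and genes chosen for their likeness to a member. The counts of 19 and 7 therefore cannot be compared as a test. Among the members only Klf4 was concerned, at 9.80 in knockout replicate 1 and at 9.27 in wild type replicate 1. Nfil3 was at 7.66 in wild type replicate 1.

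In knockout replicate 1, neutrophil and monocyte genes stood apart, with Cd177 at 7.80, Mmp8 at 6.59, Itgb2l at 6.89, S100a4 at 7.30, Ctss at 9.13, Mrc1 at 7.11 and Ctsc at 9.92. The receptor gene Il6ra was at 9.92 there. Of the genes most like Klf4, Il6 was at 5.75, Pvr at 7.84 and Ctsa at 11.79 in that array, and Ctsa was also apart in wild type replicate 1, at 11.68. The mean of the depleted lineage antigens was 6.96 and that of the megakaryocyte list 9.94 in knockout replicate 1. On other arrays the mean of the other myeloid fate factors stood at 9.43 in wild type replicate 1, and that of the erythroid list at 11.82 in wild type replicate 6.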

How the results depend on the processing

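The members' adjusted p-values stayed above 0.05 under all alternatives tried, the lowest being 0.317 for Cebpg. Leaving out 1 array at a time, differences ran from -0.020 to 0.26 log2 for Cebpa, -0.016 to 0.10 for Cebpb, -0.026 to 0.10 for Cebpd, -0.18 to 0.25 for Cebpe, -0.055 to -0.028 for Cebpg, -0.014 to 0.30 for Spi1, 0.019 to 0.36 for Gfi1 and -0.069 to 0.22 for Klf4. The sign turned for 6 members without knockout replicate 1. These were Cebpa (-0.020), Cebpb (-0.016), Cebpd (-0.026), Cebpe (-0.18), Spi1 (-0.014) and Klf4 (-0.069). The sign of Cebpe also turned without knockout replicate 2 (-0.025) or 3 (-0.014), without wild type replicate 3 (-0.047) or 5 (-0.063), and with array weights (-0.031); the cause was not tested. Neither scaling turned the sign of a member. The filters, the intensity trend, robust eBayes and the replicate block leave a member's difference unchanged by design, so they could not turn a sign. Setting array medians equal, which moved the median of all clusters from 0.015 to -0.025, took Cebpg to -0.080, Cebpb to 0.011, Cebpd to 0.0100, Cebpe to 0.0024 and Klf4 to 0.077. The count of clusters past the threshold was 0 in the analysis reported, 5 with array weights and 0 to 4 with 1 array left out (4 without knockout replicate 1). The percentage of clusters at an unadjusted p under 0.05 with positive differences was 57.0, and it was 22.0 when array medians were set equal, 46.9 after quantile normalisation and 47.5 with the 50th percentile filter.

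Same-numbered arrays of the genotypes deviated together for number 1 (r = 0.46 over clusters), and r was 0.19 for number 5 and 0.17 for number 6, but 0.035, 0.068 and -0.033 for numbers 2, 3 and 4, so the numbers were not taken as pairs. With the replicate number as a block, 0 clusters passed and 5149 had an unadjusted p under 0.05. The block cannot move a difference in this balanced design, but it changed the SE. That fell from 0.21 to 0.092 for Klf4, from 0.23 to 0.13 for Spi1 and from 0.093 to 0.051 for Cebpb. For Cebpg it stayed at 0.035. The lowest limma adjusted p of a member was then 0.490, for Spi1. Of 6 knockout arrays 3 correlated best with the wild type array of their own number, and 1 of 6 the other way round. The relations of Cebpg with Cebpb and Klf4 had r of -0.041 and -0.061 without knockout replicate 1. Without both arrays numbered 1, an alternative added after the data were seen, r turned to -0.044 for Cebpa with Klf4, and was -0.021 and -0.053 for Cebpg with Cebpb and Klf4. The 6 arrays of each genotype limit the precision of every value, and no signal over background is given by the file.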

Other observations

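Gfi1b, the erythroid and megakaryocyte paralogue of Gfi1, was chosen here after its values were seen. It was at 12.48 ± 0.20 (SD, n = 6) in knockout mice and 12.52 ± 0.071 in wild type mice. Knockout replicate 1, the array with the highest Gfi1, had the lowest Gfi1b of the 12, at 12.18. Gata1, the master factor of the erythroid line, ran from 10.75 to 11.45 in knockout mice and from 11.23 to 11.47 in wild type mice. The erythroid marker list likewise had its lowest mean, 11.30, in knockout replicate 1.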
